A study of Mus musculus with 10 samples.

Results

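Mouse epiblast stem cells (EpiSC) were set against embryonic stem cells (ESC) by RNA sequencing, over every gene with enough counts to be tested. The comparison holds 7 of the 10 libraries of the series, 5 of EpiSC and 2 of ESC, taken by the cell type in the labels. The EpiSC libraries are haEpi1 and haEpi5, both labelled haploid and p53-KO, 1 male library and 1 whose title ends in fema, taken to be female, both labelled diploid wild type, and 1 library labelled diploid p53-KO. The ESC libraries are 1 labelled haploid wild type and 1 labelled diploid wild type. Each of the 10 libraries carries the strain label 129SV. The other 3 libraries are 2 of epiblast-like cells (EpiLC, 1 wild type and 1 p53-KO, both labelled haploid) and 1 of wild-type mouse embryonic fibroblasts (MEF). The design text of the series names a set of EpiSC, EpiLC, ESC and MEF transcriptomes to compare.

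ESC are derived from the inner cell mass of the blastocyst and stand for the naive state of pluripotency, whereas EpiSC are derived from the epiblast after implantation and stand for the primed state. Mouse ESC are commonly grown with leukaemia inhibitory factor (LIF), and EpiSC with FGF and activin. The epiblast turns from a compact group of cells into a polarised epithelium around implantation, and the cell surface, the nutrient supply and the chromatin of the cells are rebuilt in that period.

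The libraries held 15862113 to 18814003 counts, and levels are TMM-normalised counts-per-million (CPM), so that 3 counts, read as the floor of detection, stood for 0.147 to 0.197 CPM. Intervals and floors of this kind cover counting error only. Values of 5 EpiSC libraries are given in the order haEpi1, haEpi5, female, male and diploid p53-KO, and those of ESC in the order haploid and diploid. The identity markers followed the labels. Fgf5, a growth factor of the post-implantation epiblast, stood at 60.1, 28.04, 47.04, 34.5 and 65.5 CPM in EpiSC and at 0.147 and 0.0643 CPM in ESC. Dppa5a, an RNA-binding protein of naive cells, stood at 0.548, 1.5, 1.41, 0.28 and 0.309 CPM in EpiSC and at 418 and 1034 CPM in ESC. Trp53, the gene named in the p53-KO labels, did not follow them. It stood at 50.1, 61.8, 36.5, 197 and 2.16 CPM in EpiSC and at 28.02 and 388 CPM in ESC, so a genotype is written here as the library's label. The haploid ESC library also stood apart from the diploid one in fibroblast RNA. The summed level of 30 fibroblast markers was 475 CPM in the diploid ESC library, 2167 CPM in the haploid ESC library, 1557 to 4729 CPM in the EpiSC libraries and 95110 CPM in MEF. In the diploid ESC library 10 of these markers were at 0, and in the haploid one 0. In bulk RNA fewer cells of a type and less RNA per cell cannot be told apart. The libraries of a group differ by line, sex, ploidy or label, so p-values rest on how far such libraries vary. The 2 EpiLC libraries share in that estimate.

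Of 21104 genes tested, 3573 (16.9%) differed between EpiSC and ESC with edgeR's quasi-likelihood test at an adjusted p under 0.05. In EpiSC 1447 genes (6.86%) were higher and 2126 (10.1%) were lower, with a median log2 fold change over all tested genes of -0.02. A stricter count took genes that passed in the same direction in the fit of all libraries and in each of the 7 fits that left out 1 EpiSC or ESC library. It held 367 higher and 699 lower genes, called kept genes below. Without the diploid ESC library the higher genes numbered 465 and the lower genes 1161, and without the haploid ESC library 1443 and 1566. A fit of the libraries labelled wild type, with 2 EpiSC against 2 ESC libraries, called 70 genes (32 higher and 38 lower), and 62 of the kept genes were called there in the same direction. Of the 105 called genes named in the following paragraphs 12 passed in that fit, and none changed direction. For most of the 112 genes named in the text the rule for naming required that the EpiSC and ESC libraries did not overlap. The named genes with overlap are Srebf2, Trp53, Zfp933 and Zfp982. Of the kept lower genes 102 were at 0 in each EpiSC library. Protein-coding genes made up 76.9% of the tested genes, 97.3% of the kept higher genes and 73.5% of the kept lower genes. Pseudogenes made up 7.88%, 1.09% and 12.7%.

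Gene families of the cell surface and of chromatin were counted by theme, and the direction of the calls differed between them. Adhesion genes had 87 members higher and 21 lower of 361 tested (24.1% and 5.82%). Receptors had 89 higher and 49 lower of 579. Transporters and channels had 69 higher and 68 lower of 591, and metabolic enzymes 82 higher and 55 lower of 630. Chromatin and zinc finger genes had 39 higher and 100 lower of 762 (5.12% and 13.1%). The lists hold protein-coding genes only. Of 16219 tested protein-coding genes 1375 were higher and 1527 lower, together 17.9%. Some single lists lay near that share, such as potassium channels (19.5%), cytokine and TNF receptors (18.4%) and desmosome and keratin genes (19.2%). Others lay above it, such as tight junction (50%) and sterol synthesis genes (48.1%). The median log2 fold change was 1.12 for adhesion, 0.65 for receptors, 0.17 for transporters and channels, 0.05 for metabolism and -0.13 for chromatin, beside 0.04 over protein-coding genes. With genes at 0 on a whole side set to the bound that 3 counts per library allow, the medians of adhesion and receptors were 0.96 and 0.59. Without the diploid ESC library the higher and lower members numbered 30 and 14 for adhesion, 33 and 20 for receptors, 30 and 37 for transporters and channels, 26 and 20 for metabolism and 16 and 53 for chromatin. Without haEpi1, the female or the diploid p53-KO EpiSC library 26 chromatin genes were higher. Lower receptors numbered 32 without haEpi5, 31 without the diploid p53-KO EpiSC library and 27 without the haploid ESC library. For the single lists, direction counts of 5 or more are followed by the count without any library that moves them by over 1.5 times.

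**Figure D1:**
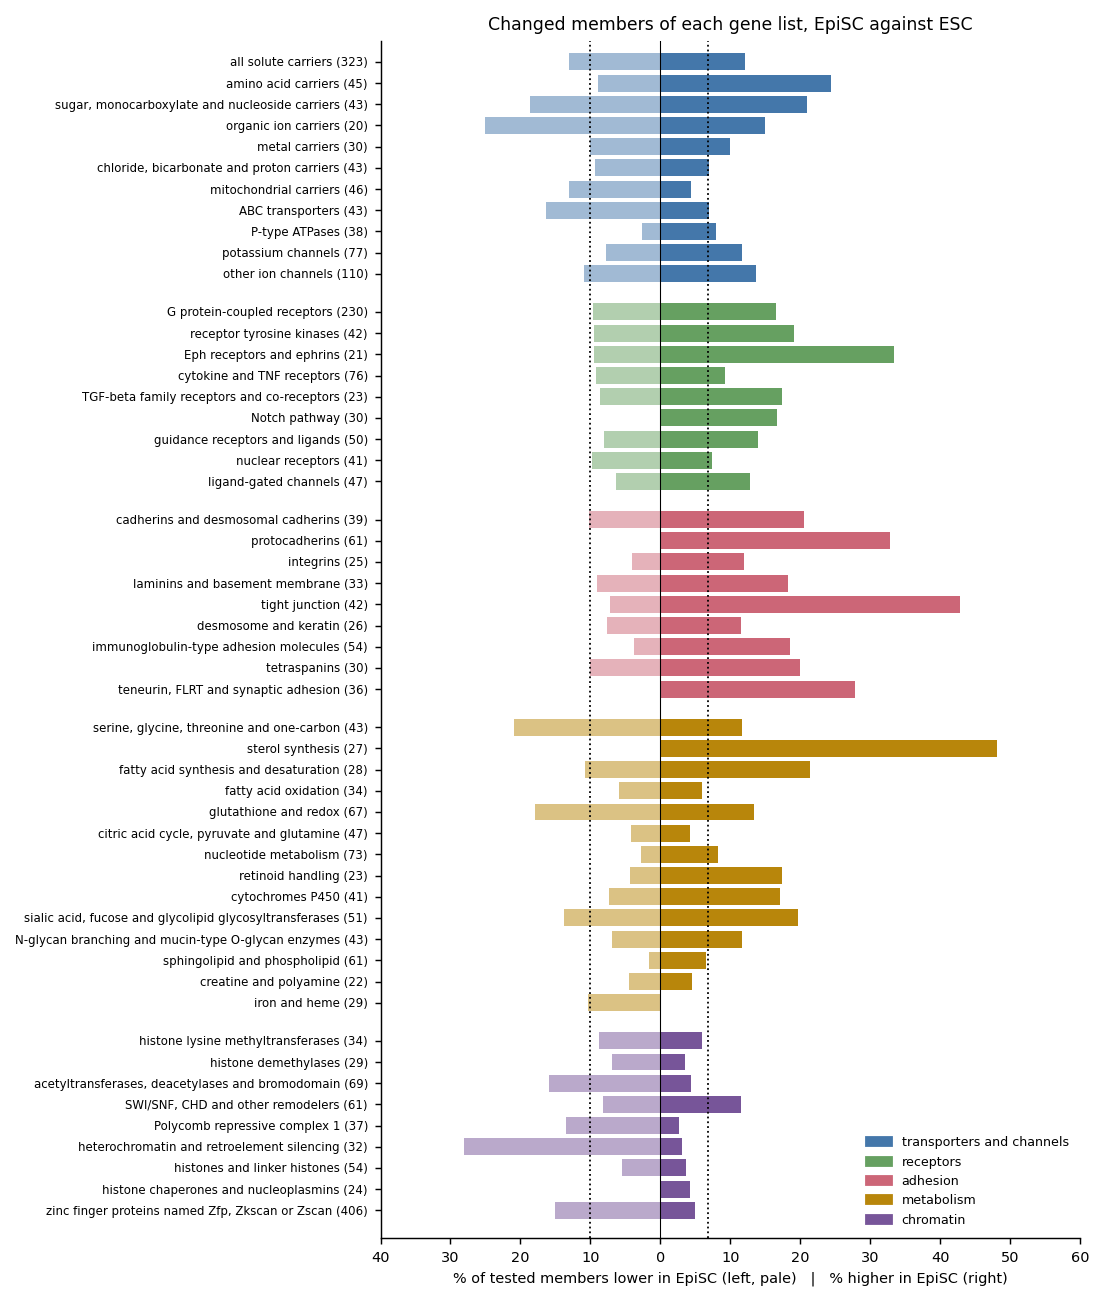
Share of the tested members of each gene list with at least 20 tested genes that were higher (right, full colour) or lower (left, pale) in EpiSC than in ESC at an edgeR adjusted p under 0.05; the number tested stands in brackets and the dotted lines mark the shares over all tested genes, 6.86% and 10.1%. Sterol synthesis and tight junction genes reach farthest to the right, and heterochromatin and retroelement silencing genes farthest to the left. The lists hold protein-coding genes only, whereas the dotted lines cover every gene type.

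The MEF library was set beside the risen genes, since the diploid ESC library held less fibroblast marker RNA than the 6 other libraries of the comparison. Of the risen genes the MEF level lay below the lowest EpiSC library for 41 of 69 transporters and channels, 32 of 89 receptors, 35 of 87 adhesion genes, 35 of 82 metabolic genes and 10 of 39 chromatin genes, beside 560 of 1375 risen protein-coding genes. The part of fibroblast RNA in the risen genes was not tested. Of the 30 fibroblast markers 2 were higher in EpiSC in the fit of all libraries, 14 with the haploid ESC library left out and 0 with the diploid one left out, and their median log2 fold change was 1.30, 6.40 and 0.58. Kept genes had passed against either ESC library alone, but their part of fibroblast RNA was not tested either. MEF lay below the lowest EpiSC library for 187 of 357 kept higher protein-coding genes. By theme these were 21 of 24 transporters and channels, 13 of 28 receptors and 15 of 27 adhesion genes. For metabolic genes they were 8 of 19, and for chromatin genes 3 of 9. The MEF level is not given below for every risen gene.

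**Figure D2:**
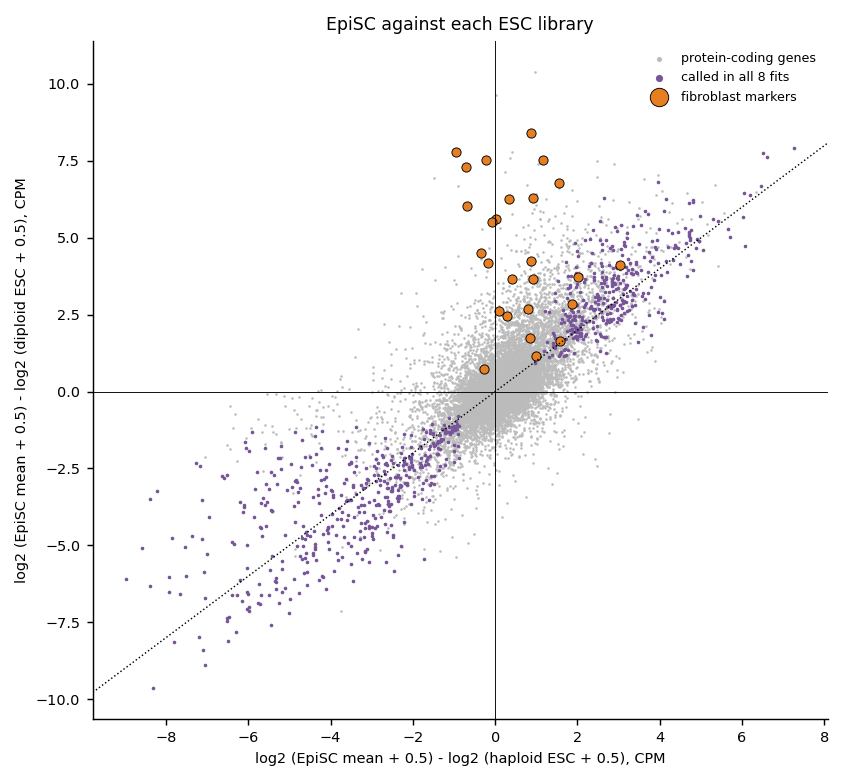
Log2 ratio of the EpiSC mean to the haploid ESC library (horizontal) and to the diploid ESC library (vertical), in CPM with 0.5 added, for 13573 protein-coding genes with a mean of at least 1 CPM over the 7 libraries; purple points passed in all 8 fits and orange points are fibroblast markers. Of 26 fibroblast markers drawn, 22 lie above 2 on the vertical axis and 2 on the horizontal axis.

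Transporters changed in both directions. Among solute carriers 25.1% were called, beside 17.9% over protein-coding genes. Of 323 solute carriers 39 were higher and 42 lower in EpiSC, of which 13 and 14 were kept genes; the higher members numbered 17 with the diploid ESC library left out and the lower members numbered 21 with the diploid ESC library left out. Zinc carriers are an example of members moving in opposite directions. Of 22 tested Zip and ZnT carriers, counted after the values were seen, 3 were higher and 2 lower, and most were not called. Slc39a8, which imports zinc and manganese across the plasma membrane, stood at 74.2, 80.2, 55.3, 261 and 199 CPM in EpiSC and at 0.983 and 0.129 CPM in ESC (log2 fold change 7.82 ± 1.04, SE; edgeR adjusted p = 0.00141). Among the EpiSC libraries the male and the diploid p53-KO library were the highest. Slc39a14, a second importer of zinc and other metals, rose from 39.6 and 25.7 CPM to 138, 95.5, 140, 129 and 104 CPM (log2 fold change 1.89, edgeR adjusted p = 0.00194). Slc39a4, the zinc importer best known from the intestine, fell from 112 and 73.8 CPM to 18.5, 4.15, 1.95, 6.6 and 2.66 CPM (log2 fold change -3.77, edgeR adjusted p = 0.0104), with haEpi1 the highest of the EpiSC libraries and still far below ESC. Slc30a2, which moves zinc into vesicles, fell from 55.1 and 57.9 CPM to 3.49, 0.921, 2.54, 0.839 and 0.371 CPM (log2 fold change -5.10, edgeR adjusted p = 0.00266). Per length, Slc39a8 stood at 16.98 FPKM in EpiSC and 0.0742 FPKM in ESC, and Slc39a4 at 2.12 and 30.1 FPKM, so the more abundant of these importers was Slc39a8 in EpiSC and Slc39a4 in ESC.

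Amino acid carriers had 11 higher and 4 lower members of 45 tested; the higher members numbered 6 with the diploid ESC library left out. Slc7a3, a carrier of arginine and lysine, stood at 574, 404, 308, 520.2 and 414 CPM in EpiSC and at 39.9 and 146 CPM in ESC (log2 fold change 2.25 ± 0.48, SE; edgeR adjusted p = 0.0123). Slc7a7, which exchanges cationic against neutral amino acids, stood at 115, 123, 85.4, 117 and 108 CPM in EpiSC and 13.8 and 14.2 CPM in ESC (log2 fold change 2.97, edgeR adjusted p = 0.00013), a tight range on either side. The peptide transporter Slc15a1 and the proline transporter Slc6a7 moved the other way. Slc15a1 fell from 4.92 and 24.8 CPM to at most 0.173 CPM (edgeR adjusted p = 0.00116). Slc6a7 fell from 10.3 and 14.4 CPM to at most 0.199 CPM (edgeR adjusted p = 0.00211). These EpiSC maxima lie at or near the floor of 3 counts. Both genes were well above it in the ESC libraries. Slc29a1, an equilibrative nucleoside transporter, stood at 35.1, 29.1, 35.9, 21.9 and 20.9 CPM in EpiSC and 188 and 173 CPM in ESC (log2 fold change -2.66, edgeR adjusted p = 0.00135). The carnitine-acylcarnitine carrier of mitochondria, Slc25a20, fell from 97.5 and 138 CPM to 25.2, 34.1, 23.7, 27.7 and 24.7 CPM (log2 fold change -2.12, edgeR adjusted p = 0.0025).

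Aqp3, a channel for water and glycerol, was among the most abundant genes of this theme to fall. It stood at 2.14, 0.979, 1.89, 0.28 and 0.247 CPM in EpiSC and at 214 and 169 CPM in ESC (log2 fold change -7.40 ± 1.21, SE; edgeR adjusted p = 0.00377). It was at 0.197 and 36.4 CPM in the wild-type and the p53-KO EpiLC libraries. Potassium channels had 9 higher and 6 lower members of 77; the higher members numbered 4 with the diploid ESC library left out. Kcnj3, a subunit of G protein-gated inward rectifiers, rose from 0.295 and 0.514 CPM to 48.4, 37.3, 50.9, 30.98 and 89.02 CPM (log2 fold change 6.99, edgeR adjusted p = 0.000492). Kcnq3, a subunit of the M-current channel, rose from 0.197 and 0.321 CPM to 14.4, 10.7, 6.44, 32.8 and 23.3 CPM (log2 fold change 6.06, edgeR adjusted p = 0.00266). The inward rectifier Kcnj12 fell from 15.6 and 12.1 CPM to 1.1, 0.288, 1.73, 1.01 and 0.68 CPM (log2 fold change -3.84, edgeR adjusted p = 0.00248). For the channels, too, the direction differed between members of 1 family. Among ABC transporters Abcg2, an efflux pump for drugs and porphyrins, rose from 44.7 and 50.01 CPM to 139.8, 249.7, 144, 151 and 196 CPM (log2 fold change 1.89, edgeR adjusted p = 0.00343). Abcb1a, 1 of the P-glycoprotein genes of the mouse, fell from 19.9 and 54.2 CPM to 3.94, 2.02, 2.54, 1.29 and 0.556 CPM (log2 fold change -4.15, edgeR adjusted p = 0.00197). Abca1, which exports cholesterol, fell from 33.97 and 28.2 CPM to 5.58, 8.64, 5.95, 3.19 and 1.85 CPM (log2 fold change -2.62, edgeR adjusted p = 0.00629). Thus 2 efflux pumps with overlapping substrates, Abcg2 and Abcb1a, moved in opposite directions. The EpiSC and ESC libraries did not overlap for either, which the rule for naming required.

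**Figure D3:**
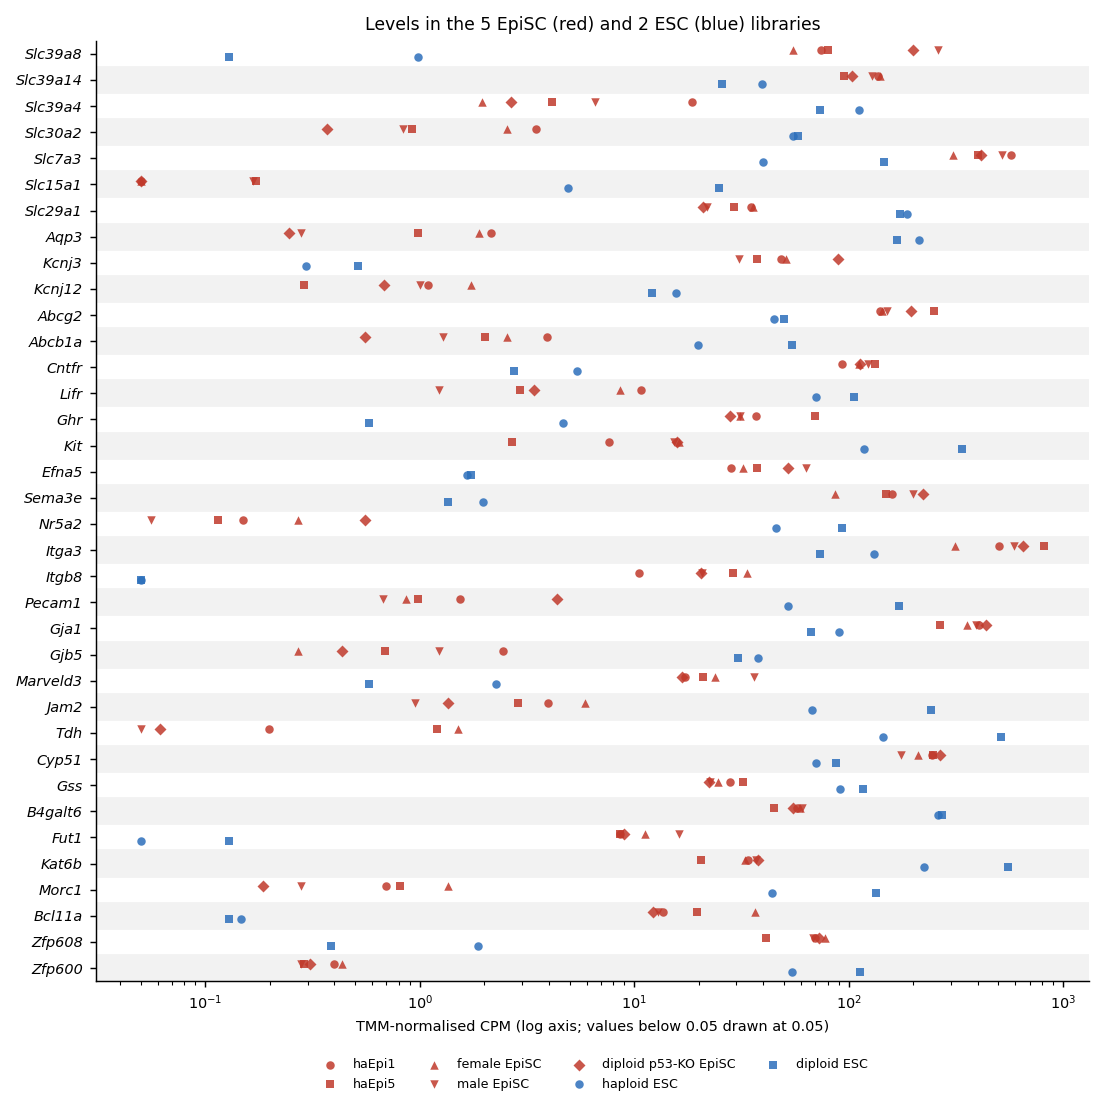
TMM-normalised CPM of 36 genes of the 5 themes in each EpiSC (red) and ESC (blue) library on a log axis, with values below 0.05 CPM drawn at 0.05. For each of these genes the red and the blue points do not overlap, which the choice of most of them required.

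Receptors of the LIF family exchanged places in abundance. Lifr, the receptor chain that binds LIF, stood at 10.7, 2.94, 8.61, 1.23 and 3.4 CPM in EpiSC and at 70.5 and 106 CPM in ESC (log2 fold change -4.03 ± 0.63, SE; edgeR adjusted p = 0.00323). Cntfr, the chain that binds ciliary neurotrophic factor and signals through Lifr and Il6st, stood at 93.1, 133, 112, 123 and 114 CPM in EpiSC and at 5.41 and 2.76 CPM in ESC (log2 fold change 4.80 ± 0.35, SE; edgeR adjusted p = 8.51e-05). The male EpiSC library had the lowest Lifr level, and Cntfr varied little among the EpiSC libraries. Il6st, the shared signalling chain, whose values are given although the rule for named genes did not select it, stood at 104, 93.8, 83.3, 73.04 and 76.5 CPM in EpiSC and at 116 and 114 CPM in ESC (log2 fold change -0.42, edgeR adjusted p = 0.447). Per length, Cntfr was at 40.2 FPKM in EpiSC against 0.487 FPKM for Lifr, and in ESC at 1.49 against 8.15 FPKM. The growth hormone receptor Ghr rose from 4.67 and 0.579 CPM to 37.1, 69.8, 31.1, 31.1 and 27.99 CPM (log2 fold change 3.88, edgeR adjusted p = 0.00773), with 192 CPM in MEF. Kit, the receptor of stem cell factor, fell from 117 and 337 CPM to 7.67, 2.71, 16.2, 15.4 and 15.9 CPM (log2 fold change -4.29, edgeR adjusted p = 0.00148). Over the whole list of cytokine and TNF receptors 7 of 76 were higher and 7 lower; the higher members numbered 4 with the diploid ESC library left out and the lower members numbered 3 with haEpi1 left out, 3 with haEpi5 left out, 4 with the male EpiSC library left out, 4 with the diploid p53-KO EpiSC library left out, 2 with the haploid ESC library left out and 1 with the diploid ESC library left out. Of 42 receptor tyrosine kinases 8 were higher and 4 lower; the higher members numbered 5 with the female EpiSC library left out, 5 with the diploid p53-KO EpiSC library left out and 1 with the diploid ESC library left out.

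Of 230 G protein-coupled receptors 38 were higher and 22 lower; the higher members numbered 14 with the diploid ESC library left out and the lower members numbered 14 with haEpi1 left out, 13 with haEpi5 left out, 14 with the male EpiSC library left out, 12 with the diploid p53-KO EpiSC library left out, 11 with the haploid ESC library left out and 7 with the diploid ESC library left out. The Frizzled receptors, which bind Wnt ligands and were counted after their values were seen, had 7 members higher (Fzd1, Fzd2, Fzd3, Fzd4, Fzd6, Fzd7 and Fzd8) and 2 lower (Fzd5 and Fzd9) of 10 tested. Of the higher members 2 were kept genes. Fzd7 stood at 286, 156, 184, 312 and 273 CPM in EpiSC and at 68.1 and 59.5 CPM in ESC (log2 fold change 1.92, edgeR adjusted p = 0.00426). Fzd5 went the other way, from 72.6 and 138 CPM in ESC to 38.4, 21.4, 32.4, 40.3 and 33.05 CPM in EpiSC (log2 fold change -1.67, edgeR adjusted p = 0.00752). Its adjusted p was 0.093 without the diploid ESC library. The MEF level lay below the lowest EpiSC library for 2 of the 7 higher members. Cnr1, the cannabinoid receptor best known from neurons, rose from 0.541 and 0.129 CPM to 11.96, 10.2, 17.4, 5.93 and 7.35 CPM (log2 fold change 4.91, edgeR adjusted p = 0.00234). Lpar5, a receptor of lysophosphatidic acid, fell from 5.11 and 8.87 CPM to 0.598, 0.461, 0.325, 0.951 and 0.124 CPM (log2 fold change -3.80, edgeR adjusted p = 0.00346).

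Eph receptors and ephrins, guidance genes and Notch pathway genes had more higher than lower members. Of these lists 42.9%, 22% and 16.7% were called in either direction, beside 17.9% over protein-coding genes. Of 21 Eph receptors and ephrins 7 were higher and 2 lower, with a median log2 fold change of 1.06; the higher members numbered 4 with the diploid ESC library left out. The membrane-anchored ligand Efna5 stood at 28.4, 37.3, 32.2, 63.3 and 51.96 CPM in EpiSC and at 1.67 and 1.74 CPM in ESC (log2 fold change 4.64 ± 0.78, SE; edgeR adjusted p = 0.00426). The transmembrane ligand Efnb2 stood at 97.8, 102, 125, 152 and 81.05 CPM in EpiSC and 13.6 and 8.42 CPM in ESC (log2 fold change 3.34, edgeR adjusted p = 0.000386). Both were also above their ESC level in MEF, at 44.5 and 154 CPM. Sema3e, a secreted semaphorin, stood at 160.2, 149, 86.7, 199 and 222 CPM in EpiSC and at 1.97 and 1.35 CPM in ESC (log2 fold change 6.61 ± 0.55, SE; edgeR adjusted p = 0.000148). In MEF it stood at 18.2 CPM. Of 50 guidance receptors and ligands 7 were higher and 4 lower; the higher members numbered 3 with the diploid ESC library left out. Of 30 Notch pathway genes 5 were higher and 0 lower; the higher members numbered 1 with haEpi1 left out, 3 with haEpi5 left out, 1 with the female EpiSC library left out, 2 with the male EpiSC library left out, 2 with the diploid p53-KO EpiSC library left out, 3 with the haploid ESC library left out and 1 with the diploid ESC library left out. Maml3, a co-activator of Notch, rose from 2.85 and 0.579 CPM to 25.7, 25.8, 43.4, 20.5 and 27.9 CPM (log2 fold change 4.04, edgeR adjusted p = 0.00538).

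Nuclear receptors had 3 higher and 4 lower members of 41, together 17.1%, near the 17.9% over protein-coding genes. Nr5a2, an orphan receptor that binds the Oct4 gene in ESC, stood at 0.149, 0.115, 0.271, 0.0559 and 0.556 CPM in EpiSC and at 45.9 and 93.7 CPM in ESC (log2 fold change -8.23 ± 0.80, SE; edgeR adjusted p = 0.000301). Esrrb, a partner of the naive network, fell from 352 and 760.1 CPM to 6.83, 6.62, 10.8, 0.727 and 4.82 CPM (log2 fold change -6.54, edgeR adjusted p = 0.0017), with the male EpiSC library the lowest. Both of these naive-state regulators were lower in each EpiSC library, which the rule for naming required. The progesterone receptor Pgr rose from 1.18 and 0.579 CPM to 8.92, 6.79, 22.4, 10.01 and 11.3 CPM (log2 fold change 3.73, edgeR adjusted p = 0.00493), with 22.6 CPM in MEF. Gria4, a subunit of AMPA-type glutamate receptors, rose from 0.295 and 0.321 CPM to 22.2, 16.5, 13.6, 33.7 and 33.6 CPM (log2 fold change 6.25, edgeR adjusted p = 0.00128). Gabrp, a GABA-A receptor subunit, fell from 3.93 and 13.2 CPM to at most 0.249 CPM (edgeR adjusted p = 0.00326). Ltbp1, which stores latent TGF-beta in the matrix, rose from 16.1 and 12.1 CPM to 116, 77.2, 87.96, 39.6 and 85.8 CPM (log2 fold change 2.53, edgeR adjusted p = 0.0043). MEF stood higher still at 138 CPM.

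The tight junction list was among those with the highest share of risen genes, whereas the desmosome and keratin list had 3 higher and 2 lower of 26. Of 42 tight junction genes 18 were higher and 3 lower, with a median log2 fold change of 1.06 (0.96 with genes at 0 set to their bound); the higher members numbered 7 with the diploid ESC library left out. Marveld3, a tight junction protein of the MARVEL family, stood at 17.2, 20.96, 23.9, 36.1 and 16.7 CPM in EpiSC and at 2.26 and 0.579 CPM in ESC (log2 fold change 3.99 ± 0.68, SE; edgeR adjusted p = 0.00468). Mpdz, a scaffold with many PDZ domains, stood at 92.5, 54.4, 89.7, 95.97 and 116 CPM and 16.6 and 6.81 CPM (log2 fold change 2.93, edgeR adjusted p = 0.00603). MEF stood at 0.386 CPM for Marveld3 and at 133 CPM for Mpdz. Cgnl1, a cytoplasmic linker to actin, stood at 183, 98.8, 108, 173 and 135 CPM and 19.8 and 26.5 CPM (log2 fold change 2.59, edgeR adjusted p = 0.00178). In each case all EpiSC libraries lay above both ESC libraries, which the rule for naming required of Marveld3 and Mpdz. Jam2, a junctional adhesion molecule, fell from 67.7 and 243 CPM to 3.99, 2.88, 5.9, 0.951 and 1.36 CPM (log2 fold change -5.68 ± 0.88, SE; edgeR adjusted p = 0.00308). Per length, Cgnl1 was at 17.3 FPKM in EpiSC and 2.94 in ESC, and Jam2 at 0.487 and 25.4 FPKM. MEF lay below the lowest EpiSC library for 13 of 18 risen tight junction genes.

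Gap junction subunits moved in opposite directions. Gja1, which encodes a widely expressed connexin, stood at 405, 268, 357, 393 and 438 CPM in EpiSC and at 90.2 and 67.04 CPM in ESC (log2 fold change 2.24 ± 0.27, SE; edgeR adjusted p = 0.000966). Gjb5, a connexin of the beta group, stood at 2.44, 0.691, 0.271, 1.23 and 0.432 CPM and 37.9 and 30.7 CPM (log2 fold change -5.06 ± 0.74, SE; edgeR adjusted p = 0.00235). The list as a whole had 3 higher and 3 lower members of 15. Per length, Gja1 was the more abundant of the pair in EpiSC, at 35.3 against 0.573 FPKM, and Gjb5 in ESC, at 20.02 against 7.71 FPKM.

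Among integrins Itga3, a subunit of laminin receptors, stood at 501, 817, 314, 589 and 651 CPM in EpiSC and at 131 and 73.3 CPM in ESC (log2 fold change 2.49 ± 0.41, SE; edgeR adjusted p = 0.00387). Itgb8, a subunit that binds latent TGF-beta, stood at 10.6, 28.96, 33.5, 20.7 and 20.4 CPM in EpiSC and was within the floor in ESC, at 0.0492 and 0 CPM (edgeR adjusted p = 0.000953). Of 25 integrin genes 3 were higher and 1 lower, the latter being the leukocyte integrin subunit Itgal, which fell from 4.62 and 10.3 CPM to 0.498, 0.633, 0.379, 0.503 and 0.371 CPM. Matrix genes included Fras1 and Frem2, partners in 1 basement membrane complex. Fras1 rose from 0.786 and 1.09 CPM to 21.5, 11.5, 41.95, 17.3 and 22.4 CPM (log2 fold change 4.60, edgeR adjusted p = 0.0014). Frem2 rose from 5.46 and 8.04 CPM to 57.5, 17.7, 75.1, 94.7 and 48.99 CPM (log2 fold change 3.12, edgeR adjusted p = 0.00813). The library haEpi5 was the lowest EpiSC library for both. MEF stood at 26.35 CPM for Fras1 and at 10.4 CPM for Frem2. Smoc1, a matricellular glycoprotein, fell from 24.5 and 38.8 CPM to 6.63, 6.1, 2.76, 1.4 and 2.47 CPM (log2 fold change -3.03, edgeR adjusted p = 0.00444).

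Immunoglobulin-type adhesion molecules had 10 higher and 2 lower members of 54; the higher members numbered 5 with the diploid ESC library left out. Pecam1, a surface molecule of naive cells and endothelium, stood at 1.54, 0.979, 0.866, 0.671 and 4.39 CPM in EpiSC and at 51.9 and 172 CPM in ESC (log2 fold change -6.05 ± 0.80, SE; edgeR adjusted p = 0.00141). Icam1, a ligand of leukocyte integrins, fell from 178 and 161 CPM to 26.3, 35.7, 16.1, 35.2 and 7.41 CPM (log2 fold change -2.81, edgeR adjusted p = 0.0119). Nfasc, an adhesion molecule known from axons, rose from 5.46 and 4.31 CPM to 102, 125, 179, 115 and 84.9 CPM (log2 fold change 4.63, edgeR adjusted p = 0.000637). The 3 genes were thus split, with Nfasc alone higher in EpiSC. Cdh10, a classical cadherin of type II, rose from 0.246 and 0.0643 CPM to 15.7, 28.4, 15.8, 14.4 and 21.2 CPM (log2 fold change 6.82, edgeR adjusted p = 0.000592). The desmosomal cadherin Dsc2 rose from 13.1 and 3.15 CPM to 42.95, 48.6, 28.8, 62.8 and 60.3 CPM (log2 fold change 2.57, edgeR adjusted p = 0.0127). The synaptic adhesion list had 10 higher and 0 lower members of 36; the higher members numbered 5 with haEpi1 left out, 5 with the diploid p53-KO EpiSC library left out and 4 with the diploid ESC library left out. Neural markers were read beside this list. Of 16 neural markers 2 were higher and 0 lower, with a median log2 fold change of 1.05, and without the diploid ESC library 0 were higher. Nes, an intermediate filament of neural progenitors, stood at 375, 461, 589, 444 and 272 CPM in EpiSC and at 79.2 and 23.2 CPM in ESC (log2 fold change 3.06, edgeR adjusted p = 0.00945). Map2, a microtubule protein of neurons, stood at 13.5, 22.9, 27.4, 19.9 and 23.04 CPM in EpiSC and at 5.7 and 1.99 CPM in ESC (log2 fold change 2.46, edgeR adjusted p = 0.0172). MEF stood at 281 CPM for Nes and at 32.6 CPM for Map2. Summed, the neural markers stood at 392.4 to 764 CPM in EpiSC, 162 and 99.6 CPM in ESC and 401 CPM in MEF. Nes alone made up most of that sum in each EpiSC library. The median neural marker stood at 1.17, 1.04, 3.84, 0.559 and 0.772 CPM in EpiSC and at 0.688 and 0.514 CPM in ESC. The neurogenic factor Neurog1 was at 0 in 4 EpiSC libraries and Neurog2 in 3. The part of neural RNA in the synaptic, guidance and other neuronal genes was not tested. Lrrn1, a leucine-rich repeat membrane protein of neurons, stood at 14.7, 21.02, 23.4, 9.56 and 28.6 CPM in EpiSC and at 0.0983 and 0.321 CPM in ESC (log2 fold change 6.54, edgeR adjusted p = 0.000589). In MEF it stood at 25.8 CPM.

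Protocadherins, which mediate recognition between like cells and lie in tandem arrays and as single genes, had 20 higher and 0 lower members of 61, and a median log2 fold change of 2.61 (1.94 with genes at 0 set to their bound). Of these 2 were kept genes. Their count depended on single libraries; the higher members numbered 10 with haEpi5 left out, 12 with the female EpiSC library left out, 13 with the diploid p53-KO EpiSC library left out, 8 with the haploid ESC library left out and 2 with the diploid ESC library left out. Members of the arrays share exons and similar sequences, so the split of reads between them is uncertain. MEF lay below the lowest EpiSC library for 2 of 20 risen protocadherins, and the part of fibroblast RNA was not tested. Pcdhgc3, a kept member of the gamma array, stood at 23.7, 26.03, 21.7, 18.5 and 18.4 CPM in EpiSC, at 3.54 and 6.36 CPM in ESC and at 98.1 CPM in MEF (log2 fold change 2.13, edgeR adjusted p = 0.00377).

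Among amino acid enzymes, that of threonine breakdown was lower in EpiSC. Those of serine synthesis were higher, with calls that depended on single libraries. Tdh, threonine dehydrogenase, through which mouse ESC break down threonine into glycine and acetyl-CoA, stood at 0.199, 1.21, 1.52, 0 and 0.0618 CPM in EpiSC and at 144 and 515 CPM in ESC (log2 fold change -9.09 ± 1.03, SE; edgeR adjusted p = 0.000726). EpiLC lay between them, at 18.8 and 69.4 CPM in the wild-type and the p53-KO library. The 3 enzymes of serine synthesis, named after their values were seen, were all higher in EpiSC. Phgdh stood at 304, 438, 256, 288 and 326 CPM and 114 and 79.2 CPM (log2 fold change 1.74, edgeR adjusted p = 0.00575). Psat1 stood at 399, 656, 319, 548 and 510.3 CPM and 173 and 194 CPM (log2 fold change 1.41, edgeR adjusted p = 0.0337). Psph stood at 57.4, 88.6, 38.9, 93.96 and 61.4 CPM and 22.3 and 34.1 CPM (log2 fold change 1.27, edgeR adjusted p = 0.0406). None of the 3 was a kept gene. Without the diploid ESC library the adjusted p was 0.0565 for Phgdh, 0.144 for Psat1 and 0.0892 for Psph, and without the haploid one 0.136 for Psat1 and 0.193 for Psph. The calls of Psat1 and Psph were also lost without haEpi5, the male or the diploid p53-KO EpiSC library, and that of Psph without haEpi1 (adjusted p 0.0586). The list of serine, glycine, threonine and one-carbon genes had 5 higher and 9 lower members of 43; the higher members numbered 3 with haEpi5 left out, 3 with the male EpiSC library left out, 3 with the diploid p53-KO EpiSC library left out, 2 with the haploid ESC library left out and 0 with the diploid ESC library left out and the lower members numbered 3 with the diploid ESC library left out. Bhmt2, which remethylates homocysteine, was at 1.38 and 2.12 CPM in ESC and at 0 in the 5 EpiSC libraries, and Dmgdh, which demethylates dimethylglycine, fell from 1.82 and 5.14 CPM to at most 0.185 CPM.

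The sterol synthesis list had 13 of 27 genes higher, 0 lower and a median log2 fold change of 0.92; the higher members numbered 5 with the haploid ESC library left out and 5 with the diploid ESC library left out. Cyp51, the lanosterol demethylase and a kept gene, stood at 245, 247, 210, 175 and 268 CPM in EpiSC and at 70.6 and 87.7 CPM in ESC (log2 fold change 1.53 ± 0.25, SE; edgeR adjusted p = 0.00362). The male EpiSC library was the lowest of EpiSC, and MEF stood at 369 CPM. Sqle, squalene epoxidase, stood at 269.7, 298, 229.8, 231 and 284 CPM and 127 and 133 CPM (log2 fold change 1.01, edgeR adjusted p = 0.00804). Its call was not kept, with an adjusted p of 0.05 without the diploid ESC library. Srebf2, which encodes the transcription factor that drives these genes, stood at 541, 453, 379, 532 and 534 CPM and 350.1 and 407 CPM (log2 fold change 0.36, edgeR adjusted p = 0.277), with overlapping libraries. MEF lay below the lowest EpiSC library for 2 of 13 risen members.

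**Figure D4:**
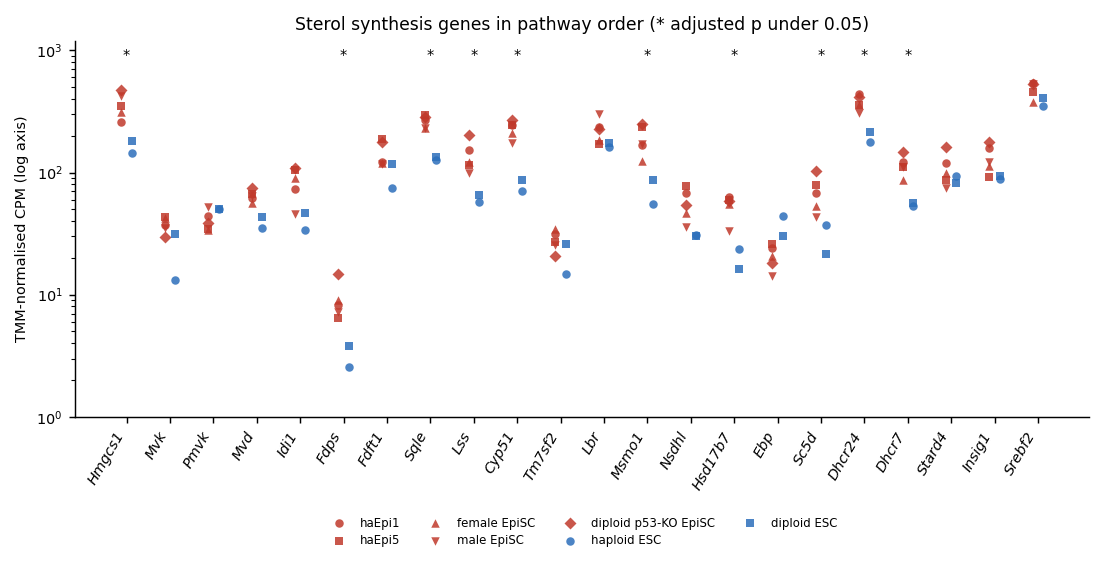
TMM-normalised CPM (log axis) of 22 genes of the sterol list, with enzymes in pathway order from left to right and Stard4, Insig1 and Srebf2 at the end, in the 5 EpiSC (red) and 2 ESC (blue) libraries; stars mark an edgeR adjusted p under 0.05. Each starred gene has its 5 EpiSC points above both ESC points.

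Glutathione and redox genes had 9 higher and 12 lower members of 67; the higher members numbered 3 with the diploid ESC library left out. Gss, glutathione synthetase, stood at 27.9, 32.4, 24.5, 22.6 and 22.3 CPM in EpiSC and at 91.6 and 117 CPM in ESC (log2 fold change -2.01 ± 0.34, SE; edgeR adjusted p = 0.00465). Oplah, which recycles 5-oxoproline to glutamate, stood at 4.58, 6.16, 4.11, 3.3 and 3.83 CPM and 19.8 and 16.4 CPM (log2 fold change -2.04, edgeR adjusted p = 0.0103). Of the glutathione transferases Gsta3 fell from 6.39 and 13.4 CPM to 0.299, 0.461, 0.108, 0.112 and 0.124 CPM (log2 fold change -5.44, edgeR adjusted p = 0.00158). Gstm5 rose from 8.7 and 0.771 CPM to 37.7, 68.5, 36.9, 41.3 and 53.5 CPM (log2 fold change 3.31, edgeR adjusted p = 0.0169). The microsomal Mgst1 rose from 0.59 and 0.0643 CPM to 9.22, 15.3, 6.28, 4.47 and 7.17 CPM (log2 fold change 4.61, edgeR adjusted p = 0.00547). These transferases have close relatives, and the split of reads between such copies is uncertain. Both Mgst1 and Gstm5 were present in MEF, at 54.1 and 37.8 CPM.

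Of 73 nucleotide enzymes 6 were higher and 2 lower, together 11%, beside 17.9% over protein-coding genes in both directions. Adk, adenosine kinase, rose from 18.1 and 23.5 CPM to 110.1, 190.3, 129, 142 and 217 CPM (log2 fold change 2.92 ± 0.48, SE; edgeR adjusted p = 0.00385). The mitochondrial adenylate kinase Ak3 rose from 7.82 and 8.61 CPM to 34.2, 70.8, 35.3, 22.99 and 50.4 CPM (log2 fold change 2.38, edgeR adjusted p = 0.00695). MEF stood at 58.9 CPM for Adk and at 71.7 CPM for Ak3. The rule that named Adk, Ak3 and the nucleoside transporter Slc29a1 given above required all EpiSC libraries to lie on 1 side of both ESC libraries. In fatty acid oxidation Acadl, the long-chain acyl-CoA dehydrogenase, rose from 27.97 and 9.64 CPM to 81.7, 100.4, 63.98, 68.3 and 75.8 CPM (log2 fold change 2.05, edgeR adjusted p = 0.00979). In MEF it stood at 80.7 CPM. Of the 34 genes of that list 2 were higher and 2 lower. Citric acid cycle, pyruvate and glutamine genes had 2 higher and 2 lower members of 47, less than the background share in either direction. Car14, a membrane-bound carbonic anhydrase, rose from 1.23 and 0.9 CPM to 29.4, 18.2, 61.2, 31.6 and 39.9 CPM (log2 fold change 5.07 ± 0.83, SE; edgeR adjusted p = 0.00377). In all 6 of 14 carbonic anhydrases were higher and 1 lower; the higher members numbered 2 with the diploid ESC library left out.

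Enzymes that cap cell-surface glycans had 10 higher and 7 lower members of 51; the higher members numbered 5 with the diploid ESC library left out and the lower members numbered 1 with the diploid ESC library left out. Fut1, a fucosyltransferase that makes H antigens, stood at 8.62, 8.64, 11.3, 16.2 and 8.96 CPM in EpiSC and at 0 and 0.129 CPM in ESC (edgeR adjusted p = 0.00355). St6gal2, a sialyltransferase, rose from 0.295 and 0.0643 CPM to 19.3, 24.6, 39.6, 13.1 and 4.08 CPM (log2 fold change 6.69, edgeR adjusted p = 0.00377), with the diploid p53-KO library the lowest in EpiSC. St8sia2, which makes polysialic acid, rose from 0.688 and 0.0643 CPM to 8.47, 9.9, 9.26, 10.7 and 15.1 CPM (log2 fold change 4.75, edgeR adjusted p = 0.00434), with 19.9 CPM in MEF. B4galt6, which makes lactosylceramide, stood at 57.3, 45.1, 59.3, 60.4 and 54.8 CPM in EpiSC and at 261 and 273 CPM in ESC (log2 fold change -2.27 ± 0.21, SE; edgeR adjusted p = 0.000263), a narrow range on both sides. Steap3, a ferrireductase of iron uptake, fell from 66.9 and 84.3 CPM to 15.2, 15.9, 7.47, 12.2 and 9.21 CPM (log2 fold change -2.66, edgeR adjusted p = 0.000581), although MEF stood at 160.5 CPM.

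Most of the lower chromatin genes were zinc finger genes, described further on. Outside the zinc finger list 19 of 356 chromatin genes were higher (5.34%) and 39 lower (11%). Over protein-coding genes 1375 were higher and 1527 lower of 16219, and over all tested genes the shares were 6.86% and 10.1%. Kat6b, a histone acetyltransferase, stood at 34.1, 20.5, 32.9, 36.97 and 37.9 CPM in EpiSC and at 225 and 554 CPM in ESC (log2 fold change -3.58 ± 0.32, SE; edgeR adjusted p = 0.000208). The EpiLC libraries stood between them, at 109.9 and 136 CPM. Acetyltransferases, deacetylases and bromodomain genes had 3 higher and 11 lower members of 69; the lower members numbered 5 with the diploid ESC library left out. Heterochromatin and retroelement silencing genes had 1 higher and 9 lower of 32, of which 7 were kept. Morc1, an ATPase that silences retrotransposons in the male germ line, fell from 43.8 and 135 CPM to 0.698, 0.806, 1.35, 0.28 and 0.185 CPM (log2 fold change -7.04 ± 0.63, SE; edgeR adjusted p = 0.000204). Zfp42, also known as Rex1, fell from 178 and 555 CPM to 1.59, 2.42, 0.379, 2.07 and 1.05 CPM (log2 fold change -7.92 ± 0.74, SE; edgeR adjusted p = 0.000263). Remodelers of the SWI/SNF and CHD families had 7 higher and 5 lower of 61; the higher members numbered 4 with haEpi1 left out and 2 with the diploid ESC library left out and the lower members numbered 1 with haEpi1 left out, 2 with haEpi5 left out, 2 with the female EpiSC library left out, 2 with the male EpiSC library left out, 1 with the diploid p53-KO EpiSC library left out and 1 with the diploid ESC library left out. Bcl11a, a zinc finger subunit of BAF complexes, rose from 0.147 and 0.129 CPM to 13.7, 19.6, 36.5, 12.9 and 12.3 CPM (log2 fold change 7.02 ± 0.92, SE; edgeR adjusted p = 0.00138). L3mbtl3, a reader of methylated histones, rose from 6.88 and 11.2 CPM to 30.3, 35.4, 43.7, 43.4 and 58.8 CPM (log2 fold change 2.22, edgeR adjusted p = 0.0061). The histone chaperone Nap1l2 rose from 2.75 and 1.86 CPM to 14.8, 15.5, 14.6, 18.6 and 15.6 CPM (log2 fold change 2.77, edgeR adjusted p = 0.00141). Histone genes had 2 higher and 3 lower of 54; the libraries were made from poly-A RNA, which most histone messages lack.

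Zinc finger genes named Zfp, Zkscan or Zscan were the largest chromatin list, with 20 higher and 61 lower of 406; the higher members numbered 10 with the diploid ESC library left out and the lower members numbered 35 with the diploid ESC library left out. Many of these proteins carry a KRAB domain, which recruits the silencing cofactor Trim28 to retroelements. Zfp608 rose from 1.87 and 0.386 CPM to 69.8, 41.3, 77.7, 68.5 and 72.8 CPM (log2 fold change 5.83 ± 0.97, SE; edgeR adjusted p = 0.0042). Zfp521 rose from 0.541 and 0.0643 CPM to 6.28, 7.49, 9.9, 7.16 and 13.7 CPM (log2 fold change 4.78, edgeR adjusted p = 0.00562). MEF stood at 42.8 CPM for Zfp608 and at 98.1 CPM for Zfp521. The lower members were unevenly placed. Of the tested zinc finger genes 14 of 32 were lower on chromosome 4 and 26 of 104 on chromosome 7. The same count was 0 of 21 on chromosome 11, 2 of 38 on chromosome 13 and 1 of 23 on chromosome 2.

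Most of the lower genes on chromosome 4 lay in 1 cluster, which was delimited after the values were seen as the longest run of listed genes with gaps of at most 1500000 bases. It spans chr4:145510759-147848366 (mm10) and holds 18 tested zinc finger genes from Zfp990 to Zfp933, of which 13 were lower and 0 higher, with a median log2 fold change of -5.28. Counting every gene type, 40 of 65 tested genes in the span were lower and 0 higher. In the 1 Mb after it 1 of 24 were lower and 2 higher, and in the 1 Mb before it 5 of 9 and 1. Outside the cluster 48 of 388 zinc finger genes were lower (12.4%), beside 1527 of 16219 protein-coding genes and 10.1% of all tested genes. The summed level of the 18 genes was 90.5, 99.3, 75.7, 96.5 and 116 CPM in the EpiSC libraries, 774 and 1447 CPM in ESC, 1306 and 1225 CPM in the wild-type and p53-KO EpiLC libraries and 36.6 CPM in MEF.

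The promoters of 4 lower genes of the cluster are shown because they share sequence as well as direction, and were chosen for it after values and sequences were seen, each as 300 bases on the plus strand of GRCm38 (RefSeq), from 250 bases before the start of transcription. Capitals mark the longest run of letters, 42 bases, that all 4 have in common:
Zfp600, chr4:146156577-146156876: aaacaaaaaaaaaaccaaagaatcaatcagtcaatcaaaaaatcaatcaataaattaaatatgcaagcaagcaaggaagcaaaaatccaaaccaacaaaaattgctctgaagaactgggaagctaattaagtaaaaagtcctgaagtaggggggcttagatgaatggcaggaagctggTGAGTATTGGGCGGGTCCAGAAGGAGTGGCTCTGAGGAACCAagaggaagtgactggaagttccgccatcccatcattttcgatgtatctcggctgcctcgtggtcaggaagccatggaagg
Zfp980, chr4:145670447-145670746: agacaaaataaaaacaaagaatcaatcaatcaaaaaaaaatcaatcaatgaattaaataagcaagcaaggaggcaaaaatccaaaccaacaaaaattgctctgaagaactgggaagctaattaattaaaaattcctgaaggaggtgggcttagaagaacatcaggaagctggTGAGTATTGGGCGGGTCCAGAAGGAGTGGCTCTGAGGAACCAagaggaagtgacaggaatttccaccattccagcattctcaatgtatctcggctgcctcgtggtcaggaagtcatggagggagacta
Zfp985, chr4:147553027-147553326: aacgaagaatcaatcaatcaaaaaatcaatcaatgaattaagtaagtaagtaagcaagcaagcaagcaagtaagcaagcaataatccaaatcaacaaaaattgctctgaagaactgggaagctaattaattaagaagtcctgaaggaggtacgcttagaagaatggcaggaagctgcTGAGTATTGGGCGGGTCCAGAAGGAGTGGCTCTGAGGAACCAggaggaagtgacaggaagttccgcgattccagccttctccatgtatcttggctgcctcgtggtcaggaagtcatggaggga
Zfp988, chr4:147305354-147305653: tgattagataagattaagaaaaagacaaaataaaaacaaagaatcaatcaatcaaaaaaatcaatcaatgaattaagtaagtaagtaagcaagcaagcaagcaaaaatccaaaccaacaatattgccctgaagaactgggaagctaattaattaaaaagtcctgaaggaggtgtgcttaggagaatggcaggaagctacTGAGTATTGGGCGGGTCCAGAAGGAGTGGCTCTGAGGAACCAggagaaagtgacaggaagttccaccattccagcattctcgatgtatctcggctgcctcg
Pairs of these 4 promoters were 74.6% to 88.6% identical over a global alignment. The run in capitals was searched on both strands of 32851 RefSeq promoters of the same length and was found in 6 (0.0183%), all on chromosome 4, which are those of Zfp600, Zfp980, Zfp982, Zfp985, Zfp988 and Rex2. These 6 include the 4 promoters it was taken from, so only Zfp982 and Rex2 are further matches. Promoters were listed for 12 of the 18 cluster genes, so a match in the remaining ones was not looked for. The run was not shared by all lower genes. Of the 12 cluster genes with a listed promoter 5 hold it, 4 of them lower. Another 7 lack it, of which 4 were also lower (Zfp534, Zfp979, Zfp981 and Zfp987). The 4 lower holders are the genes the run was taken from, so that count was fixed by their choice. Zfp982 is the only other holder in the cluster and was not called. Promoters that lack the run can still be close in sequence, as Zfp600 and Zfp979 were 94.8% identical.

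Zfp600 stood at 0.399, 0.288, 0.433, 0.28 and 0.309 CPM in EpiSC and at 54.5 and 112 CPM in ESC (log2 fold change -7.90 ± 0.34, SE; edgeR adjusted p = 1.09e-05). It stood at 61.2 and 84.3 CPM in the wild-type and the p53-KO EpiLC libraries. Zfp980 stood at 1.34, 0.403, 1.62, 1.62 and 1.79 CPM and 43.4 and 108 CPM (log2 fold change -5.80, edgeR adjusted p = 0.00013). Zfp985 stood at 1.79, 2.25, 1.79, 0.336 and 0.618 CPM and 39.7 and 70.1 CPM (log2 fold change -5.33, edgeR adjusted p = 0.000414). Zfp988 stood at 0.997, 0.115, 0.866, 0.0559 and 0.927 CPM and 58.05 and 82.2 CPM (log2 fold change -6.86, edgeR adjusted p = 0.000398). For these 4 genes the EpiSC libraries lay far below both ESC libraries. Rex2, a zinc finger gene outside the list by its name, fell from 77.7 and 136 CPM to 2.19, 1.5, 1.84, 1.17 and 0.309 CPM (log2 fold change -6.24, edgeR adjusted p = 0.000114). Zfp982, with the run in 1 of its listed promoters, did not pass the test. It stood at 5.08, 1.73, 1.14, 17.4 and 23.2 CPM in EpiSC and at 20.1 and 36.1 CPM in ESC (log2 fold change -1.53, edgeR adjusted p = 0.291). The diploid p53-KO EpiSC library lay between the ESC libraries, and the other 4 lay below both. Libraries of EpiSC differed elsewhere in the cluster too. Zfp984 stood at 21.1, 25.3, 22.6, 1.01 and 22.4 CPM in EpiSC and at 33.8 and 59.01 CPM in ESC (log2 fold change -1.33, edgeR adjusted p = 0.27), with the male library the lowest. Zfp990 stood at 14.3, 15.8, 6.44, 45.9 and 0 CPM and 112 and 264 CPM (log2 fold change -3.51, edgeR adjusted p = 0.0536), with the diploid p53-KO library at 0. Zfp990 passed the test without the male library (adjusted p = 0.0297) or the diploid p53-KO library (adjusted p = 0.0163). Zfp933 at the end of the cluster stood at 12.1, 8.35, 11.4, 7.83 and 9.08 CPM and 10.3 and 7.26 CPM (log2 fold change 0.15, edgeR adjusted p = 0.797). Near-identical copies share reads, so the level of a single member is less certain than that of the cluster.

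**Figure D5:**
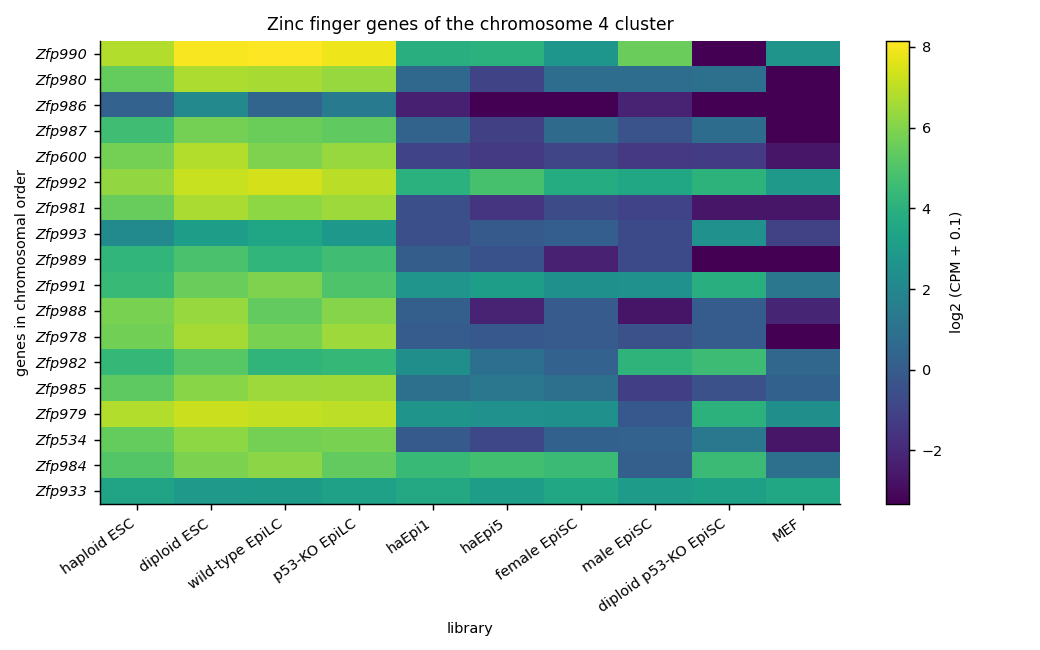
Log2 (CPM + 0.1) of the 18 tested zinc finger genes of the chromosome 4 cluster in chromosomal order (rows) in each of the 10 libraries (columns). The ESC and EpiLC columns are bright for most rows and the EpiSC and MEF columns dark, with Zfp933 alike in all columns.

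Beyond these themes, the genes with the largest differences in mean level included secreted and signalling proteins. Pim2, a serine/threonine kinase, stood at 1130, 429.7, 957, 302 and 409.5 CPM in EpiSC and at 26.1 and 15.8 CPM in ESC (log2 fold change 4.95 ± 0.73, SE; edgeR adjusted p = 0.00238), with haEpi1 and the female library the highest. Lrp2, the endocytic receptor megalin, stood at 326, 246, 219, 702 and 734 CPM and 43.8 and 56.1 CPM (log2 fold change 3.16, edgeR adjusted p = 0.00655), with the male and the diploid p53-KO library the highest. Mdk, the heparin-binding growth factor midkine, stood at 416, 482, 605, 599 and 389 CPM and 110.2 and 143 CPM (log2 fold change 1.98, edgeR adjusted p = 0.00726). The rise of these 3 differed in size among the EpiSC libraries. Igfbp3, a carrier of insulin-like growth factors, stood at 186, 429, 86.1, 443 and 208 CPM and 20.01 and 4.5 CPM (log2 fold change 4.46, edgeR adjusted p = 0.0073). Pxdn, a peroxidase that cross-links collagen IV, stood at 391, 312, 417, 336 and 473 CPM and 50.6 and 8.87 CPM (log2 fold change 3.69, edgeR adjusted p = 0.00453), with MEF at 1086 and 655 CPM. Of the abundant genes that fell, Mybl2, a transcription factor of the cell cycle, stood at 104, 98.3, 86.2, 135 and 98.8 CPM and 352 and 827 CPM (log2 fold change -2.50, edgeR adjusted p = 0.00128). Jade1, a subunit of histone acetyltransferase complexes, stood at 86.7, 60.8, 77.8, 81.1 and 77.8 CPM and 346 and 501 CPM (log2 fold change -2.46, edgeR adjusted p = 0.000148). Trip12, a ubiquitin ligase, and Eif2s2, a subunit of an initiation factor of translation, fell by 1.04 and 1.12 on the log2 scale from high levels, 924 and 768 CPM on average in ESC.

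The spread among libraries was read from the kept genes, without a test. Over the 367 kept higher genes the median ratio of the highest to the lowest EpiSC library was 1.94. The highest library was the diploid p53-KO one for 97 genes, the male one for 83, the female one for 75, haEpi5 for 70 and haEpi1 for 42. Over the 699 kept lower genes 365 were at 0 in at least 1 EpiSC library, and among genes above 0 throughout the median ratio was 2.89. In ESC the haploid library was at least 4-fold above the diploid one for 79 of the kept lower genes, and the diploid library at least 4-fold above the haploid one for 31. Dazl, an RNA-binding protein of germ cells, stood at 275 and 37.1 CPM in the haploid and diploid ESC libraries. Sohlh2, a germ-cell transcription factor, stood at 127 and 46.7 CPM. Zscan4d, a marker of 2-cell-like cells whose family copies share reads, stood at 25.3 and 5.72 CPM. These genes were at most 0.149, 0.0576 and 0 CPM in EpiSC. Genes of the X chromosome made up 4.06% of the tested genes, 4.28% of the higher and 7.01% of the lower genes. Among kept genes the shares were 7.08% and 6.15%.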

How the data were processed

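RNA was harvested with Trizol and libraries were made with an NEBNext kit, per the labels' protocols. The counts are deposited as whole numbers for each gene. The submitters' processing notes name HISAT2 2.0.5, featureCounts 1.5.0-p3 and the build mm10. The deposited FPKM equal these counts over gene length and a factor for the library, and they served to compare levels between genes and in the limma alternative. No source used here gives the strand setting, so reads of a gene and of an overlapping or antisense one cannot be separated.

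The test was that of edgeR 4.0.16 under R 4.3.3 on the counts (filterByExpr, TMM, quasi-likelihood F test, Benjamini-Hochberg adjustment, threshold 0.05). All 10 libraries entered 1 model, in which each cell type had its own mean. The SE of a log2 fold change is its size over the square root of F. Alternatives were DESeq2 1.42.0, RLE size factors, no low-count filter, the 7 libraries alone, each EpiSC or ESC library left out, p53 label and ploidy as covariates, wild-type labels alone, a 2-fold minimum, and limma 3.58.1 on log2(FPKM + 1), with and without a filter, and on log2(FPKM + 0.1). On counts simulated for this comparison (19439 genes) the test recovered 0, 16, 39 and 49 of 50 genes changed 2-, 4-, 8- and 16-fold.

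The comparison, the 65 gene lists and the rule for named genes were chosen with earlier results of these data known, and list counts carry no test of their own. The pattern for ion channels was corrected after the data were seen, since it also took genes such as Tmem161a. The rule names kept genes whose libraries do not overlap, by the largest log2 fold change per theme, per list and over all genes, and by the largest difference in mean CPM over all genes; a list with no such gene gives the 2 with the smallest p. Bhmt2, Cgnl1, Dmgdh, Rex2, the Frizzled genes, Il6st, the 3 serine synthesis genes, the sterol genes Sqle and Srebf2, and the genes of the chromosome 4 cluster other than Zfp600 were named outside the rule, after their values were seen. Some genes that the rule selects are not reported here. Promoters are RefSeq's (GRCm38.p6).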

Additional observations from a re-analysis of the deposited data

Results flagged for a closer look

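Among the 112 genes named in the text, 9 had 1 EpiSC library far from the other 4 by Dixon's ratio of the gap to the range (above 0.71), and chance flags about 1 in 20 groups. The library haEpi1 was the highest for Slc39a4 (18.5 CPM, the others 1.95 to 6.60) and for Gabrp (0.249 CPM, the others 0 to 0.0541). The library haEpi5 was the highest for Ghr (69.8 CPM, the others 27.99 to 37.1) and the lowest for Kat6b (20.5 CPM, the others 32.9 to 37.9) and Zfp608 (41.3 CPM, the others 68.5 to 77.7). The female library was the highest for Pgr (22.4 CPM, the others 6.79 to 11.3). The male library was the highest for Nap1l2 (18.6 CPM, the others 14.6 to 15.6) and the lowest for Zfp984 (1.01 CPM, the others 21.1 to 25.3). The diploid p53-KO library was the highest for Pecam1 (4.39 CPM, the others 0.671 to 1.55). Except for Zfp984, which did not pass the test, each of these genes was called with and without the library that stood apart.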

How the results depend on the processing

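The count of genes changed between EpiSC and ESC was 3573, of which 1447 were higher and 2126 lower in EpiSC. It lay within 1.5 times that count under DESeq2 (4353), RLE size factors (3577), no low-count filter (4602), the 7 libraries alone (3297), a 2-fold minimum (3317) and the limma fits on FPKM (2925 to 3382). When p53 label and ploidy were added as covariates, 2243 genes changed and 1253 were lower. With wild-type labels alone, where 2 EpiSC libraries face 2 ESC libraries, 70 genes changed, 32 higher and 38 lower. Leaving out 1 library gave 1626 to 3009 changed genes, 465 to 1443 higher and 1161 to 1720 lower, each time fewest without the diploid ESC library. Of 1066 kept genes 1059 were called in the same direction by DESeq2 and 1027 with the covariates. Of the 105 called genes named in the text 12 passed with wild-type labels alone, and all 105 kept their direction there. The directions of Trp53 and Zfp933, neither of which was called, reversed without the diploid ESC library (log2 fold changes 1.27 and -0.11). The cause was not tested. In the simulation 0 of 50 genes changed 2-fold were recovered, so the power for small changes was low in that setting. The simulation changed a much smaller share of genes than was called in the data. It also gave every gene the same dispersion, so its recovery is a rough guide only. In the data some genes changed less than 2-fold were called. No paired analysis was possible because EpiSC and ESC libraries share no replicate numbers in the labels.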
